A study of Rattus norvegicus with 125 samples.

Results

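Messenger RNA levels of 10 assembly factors of cytochrome c oxidase were followed in rats exposed to phosphine (PH3), a fumigant gas, or to Air. The genes were Cox10, Cox15, Cox11, Cox17, Cox19, Sco1, Cox14, Cox20, Lrpprc and Taco1. They were taken by gene symbol, with no threshold on a measured value, from 13439 genes that had a probe set with 1 gene symbol, and all 10 were on the array. Adult male Sprague-Dawley rats breathed 387 ppm PH3 for 40 min (15480 ppm × min) with the whole body exposed, or Air at 0 ppm PH3 for the same 40 min. Organs were taken from PH3 and Air rats at 1, 3, 6 and 24 h for brain, heart and kidney, at 6 h for liver, and at 3 h, 24 h and 1 week for lung. PH3 groups held 4 rats, except 3 for heart at 24 h and 3 for lung at 1 week, and Air groups held 4 rats, except 2 for heart at 24 h and 2 for lung at 3 h. Liver was also taken at 3 h from 3 PH3 rats, with no Air counterpart. No rat carried a transgene or a deletion according to the labels, and each array held RNA from 1 organ of 1 rat.

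Cytochrome c oxidase is complex IV of the respiratory chain, and phosphine is known to inhibit it in isolated mitochondria. The enzyme passes electrons to oxygen through heme A and copper centres, which sit in subunits encoded by mitochondrial DNA. Assembly factors are not part of the finished enzyme: some make heme A, some deliver copper, and others govern the synthesis and insertion of the mitochondrial subunits. Heart, with its dense mitochondria, is rich in the enzyme.

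The data set held 125 arrays of 48 rats in 33 groups. Levels are log2 signals summarised by RMA, so a difference of 1 is a doubling, and array medians lay between 5.08 and 5.52. Marker genes of each labelled organ were high in that organ: the lowest mean marker level of an array in its own organ was 10.5 in brain, 13.1 in heart, 11.7 in kidney, 13.5 in liver and 12.6 in lung. The highest level of the same markers in any other organ was 6.00 for brain markers, 8.93 for heart markers, 4.69 for kidney markers, 10.6 for liver markers and 5.60 for lung markers. The signals of 7 factors lay above the array's median on all 125 arrays. Cox11, Cox20 and Taco1 lay below the array's median on 110, 124 and 125 of the 125 arrays, and Taco1 lay below the 25th percentile on 84 of them.

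The DNA before the starts of 3 of these genes is shown, since Cox10 was the gene that passed the test after PH3, Cox15 works beside it in the same pathway, and Sco1 holds a motif of each. Each run is the 250 bases before the annotated start in RefSeq's rat build GRCr8, 5′ to 3′ on the gene's strand. Cox10 is on the minus strand at chr10:49242010-49242259, Cox15 on the minus strand at chr1:252571472-252571721 and Sco1 on the plus strand at chr10:52243414-52243663. Capitals mark matches to GCGCA, any base and GCGC in a row (NRF-1), or to the letters CCGGAAG (ETS), GGGCGG (Sp1) or AAGATGGCG (YY1) on either strand.
Cox10: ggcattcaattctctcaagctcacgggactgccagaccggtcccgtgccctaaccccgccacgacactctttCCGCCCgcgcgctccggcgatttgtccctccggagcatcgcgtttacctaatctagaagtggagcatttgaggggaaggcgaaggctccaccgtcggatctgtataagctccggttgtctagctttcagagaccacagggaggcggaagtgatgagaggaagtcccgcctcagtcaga
Cox15: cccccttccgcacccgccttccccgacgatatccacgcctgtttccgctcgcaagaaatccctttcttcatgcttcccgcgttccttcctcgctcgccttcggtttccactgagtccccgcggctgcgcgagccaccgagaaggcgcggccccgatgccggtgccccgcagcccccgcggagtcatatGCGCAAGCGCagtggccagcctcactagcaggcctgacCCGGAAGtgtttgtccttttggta
Sco1: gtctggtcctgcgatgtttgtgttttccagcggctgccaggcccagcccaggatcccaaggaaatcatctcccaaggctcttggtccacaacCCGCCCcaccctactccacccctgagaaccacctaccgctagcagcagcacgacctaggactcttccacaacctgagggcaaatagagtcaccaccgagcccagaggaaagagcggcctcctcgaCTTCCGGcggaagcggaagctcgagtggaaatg
The Cox15 window held an NRF-1 match whose first base was at -62 from the start and an ETS match at -24. Sco1 held an ETS match at -33 and an Sp1 match at -158, and Cox10 an Sp1 match at -178. NRF-1 and ETS-family (NRF-2) factors are known regulators of nuclear genes for respiratory chain proteins.

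Over the 10 windows the ETS letters occurred in 4 (Cox11, Cox15, Cox20 and Sco1), against 7.27% of 33469 promoter windows of the same length. The Sp1 letters occurred in 4 (Cox10, Cox19, Cox20 and Sco1), against 30.5% of all windows, and in Cox19 neighbouring Sp1 matches overlapped. The NRF-1 letters occurred in 1 (Cox15), against 3.75%, and the YY1 letters in 0, against 0.693%. The windows of Cox14, Cox17, Lrpprc and Taco1 held none of these letters. GC content ran from 46% to 69.2% with a median of 59.2%, against a median of 51.2% over all windows. CpG pairs ran from 11 to 33 with a median of 15.5, against a median of 5. The 33469 windows were not limited to genes on the array. They were not matched for GC content or CpG pairs, and enrichment of a motif was not tested. A match describes the letters and was not tested as a binding site.

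Among Air arrays heart had the highest mean level of 6 factors, and lung the lowest mean level of 6. Air arrays numbered 14 for heart, 16 for kidney, 4 for liver, 16 for brain and 10 for lung. In these bulk samples a lower level can come from fewer cells of a type or from less RNA per cell, which cannot be told apart. The gap between 3′ and 5′ control probe sets of beta-actin, read as RNA quality, also differed by organ. Its mean in Air groups was 1.80 to 1.97 in heart, 3.51 to 3.67 in brain and 3.06 to 3.53 in kidney. In Air liver it was 3.03, and in Air lung 2.61 to 3.27. The part of RNA quality in the organ differences was not tested. Nearly all genes on the array differ between organs: 98.1% of them passed a limma F test over the 5 organs. Each pair of organs is therefore read against its own share of all genes.

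Cox10 and Cox15 catalyse the steps from heme B to heme A. Cox10, which adds the farnesyl tail that makes heme O, averaged 10.31 ± 0.12 in heart, 8.92 ± 0.26 in kidney, 8.17 ± 0.11 in liver, 8.12 ± 0.21 in brain and 8.11 ± 0.25 in lung (SD). Its lowest, median and highest Air levels were 10.08, 10.28 and 10.54 in heart, and 8.40, 8.90 and 9.35 in kidney. The other organs lay lower still, at 8.03 to 8.30 in liver (median 8.17), 7.86 to 8.53 in brain (median 8.11) and 7.72 to 8.47 in lung (median 8.11). Every heart array was thus above every array of another organ, and the levels in liver, brain and lung overlapped. Heart exceeded kidney by 1.38 ± 0.08 (SE) and kidney exceeded liver by 0.75 ± 0.12, both past the limma test, whereas liver and brain differed by 0.05 ± 0.12 (adjusted p = 0.712) and brain and lung by 0.01 ± 0.09 (adjusted p = 0.899). Cox15, which oxidises heme O to heme A, averaged 10.15 ± 0.13 in heart, 9.46 ± 0.09 in kidney, 9.06 ± 0.09 in liver, 8.93 ± 0.21 in lung and 8.76 ± 0.06 in brain. For Cox15 only liver and lung, among neighbours in that order, did not pass (0.13 ± 0.08, adjusted p = 0.141). Both heme A genes therefore had their highest level in heart and their next in kidney.

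The copper factors did not share 1 order. Cox17, the copper chaperone of the intermembrane space, averaged 11.44 ± 0.07 in heart, 10.51 ± 0.15 in kidney, 10.48 ± 0.30 in lung, 10.26 ± 0.15 in brain and 9.93 ± 0.09 in liver. Kidney and lung were not told apart for Cox17 (0.02 ± 0.07, adjusted p = 0.757). Sco1, which takes copper from Cox17 to the copper site of COX2, averaged 9.32 ± 0.09 in heart, 9.10 ± 0.16 in liver, 8.67 ± 0.25 in kidney, 8.23 ± 0.15 in brain and 8.05 ± 0.18 in lung. The step from heart to liver missed the threshold (0.22 ± 0.10, adjusted p = 0.0558), and the other steps of Sco1 passed. Liver was second for Sco1 and last for Cox17.

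Cox11, which takes copper to the site in COX1, averaged 5.68 ± 0.12 in liver, 4.91 ± 0.24 in kidney, 4.58 ± 0.28 in heart, 4.27 ± 0.15 in brain and 4.16 ± 0.16 in lung. All neighbouring steps of Cox11 passed except brain against lung (0.11 ± 0.09, adjusted p = 0.247). This order is that of the brightest of 3 Cox11 probe sets. The others were dim and gave another order, each highest in heart. They stood at 4.31 ± 0.29 in heart and 4.23 ± 0.26 in liver, and at 3.59 ± 0.16 and 3.54 ± 0.09. Cox19, an intermembrane space protein that works with Cox11 in yeast, averaged 9.59 ± 0.17 in kidney, 9.44 ± 0.05 in liver, 9.06 ± 0.09 in heart, 8.28 ± 0.24 in lung and 8.20 ± 0.18 in brain. Kidney and liver (0.15 ± 0.10, adjusted p = 0.185) and lung and brain (0.08 ± 0.07, adjusted p = 0.298) were not told apart for Cox19. A second Cox19 probe set gave another order: it was highest in brain (6.59 ± 0.15) and lowest in liver (5.28 ± 0.22).

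Of the factors that act on the mitochondrial subunits, Cox14, which binds newly made COX1, averaged 10.92 ± 0.06 in heart, 10.88 ± 0.14 in kidney, 10.42 ± 0.14 in brain, 10.15 ± 0.17 in liver and 10.01 ± 0.30 in lung. Heart and kidney (adjusted p = 0.542) and liver and lung (adjusted p = 0.207) were not told apart for Cox14. Subtracting array medians turned the difference between liver and brain to 0.045, against -0.27 (adjusted p = 0.00686) without that step, and leaving out Air liver of rat 156 gave -0.22 (adjusted p = 0.0572). Cox20, the chaperone of COX2, averaged 4.79 ± 0.27 in kidney, 4.70 ± 0.27 in heart, 4.45 ± 0.14 in lung, 4.09 ± 0.19 in brain and 4.02 ± 0.23 in liver. Kidney and heart (adjusted p = 0.304) and brain and liver (adjusted p = 0.612) were not told apart for Cox20. Taco1, which activates translation of COX1, averaged 4.12 ± 0.14 in liver, 3.93 ± 0.18 in kidney, 3.75 ± 0.23 in heart, 3.64 ± 0.12 in brain and 3.57 ± 0.15 in lung, and only the step from kidney to heart passed (0.17 ± 0.06, adjusted p = 0.0117).

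Lrpprc, an RNA-binding protein that keeps mitochondrial messenger RNAs stable, averaged 11.32 ± 0.14 in heart, 10.70 ± 0.14 in liver, 9.97 ± 0.68 in kidney, 9.86 ± 0.38 in brain and 8.28 ± 0.81 in lung. Its lowest, median and highest Air levels were 10.90, 11.34 and 11.47 in heart, 10.56, 10.70 and 10.84 in liver, 8.51, 10.30 and 10.72 in kidney, 9.09, 10.00 and 10.30 in brain, and 6.91, 8.58 and 9.19 in lung. The spread between rats was thus several times wider in kidney and lung than in heart and liver. Brain exceeded lung by 1.58 ± 0.20, and heart exceeded liver by 0.62 ± 0.29, which missed the threshold (adjusted p = 0.0513). These SEs came from 1 spread shared by all organs, kidney and lung included, and not from the 2 organs compared. Every Air heart (lowest 10.90) lay above every Air liver (highest 10.84). Liver exceeded kidney by 0.73 ± 0.28 (adjusted p = 0.0220). That call was lost without the Air liver of rat 126 (adjusted p = 0.0578) or rat 138 (adjusted p = 0.0637). Kidney and brain were not told apart (adjusted p = 0.563). These levels are those of the brightest of 3 Lrpprc probe sets. The others were dim: 1 ran only from 3.52 in lung to 3.85 in heart. The last was highest in liver, at 4.38, with heart at 3.71.

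**Figure D1:**
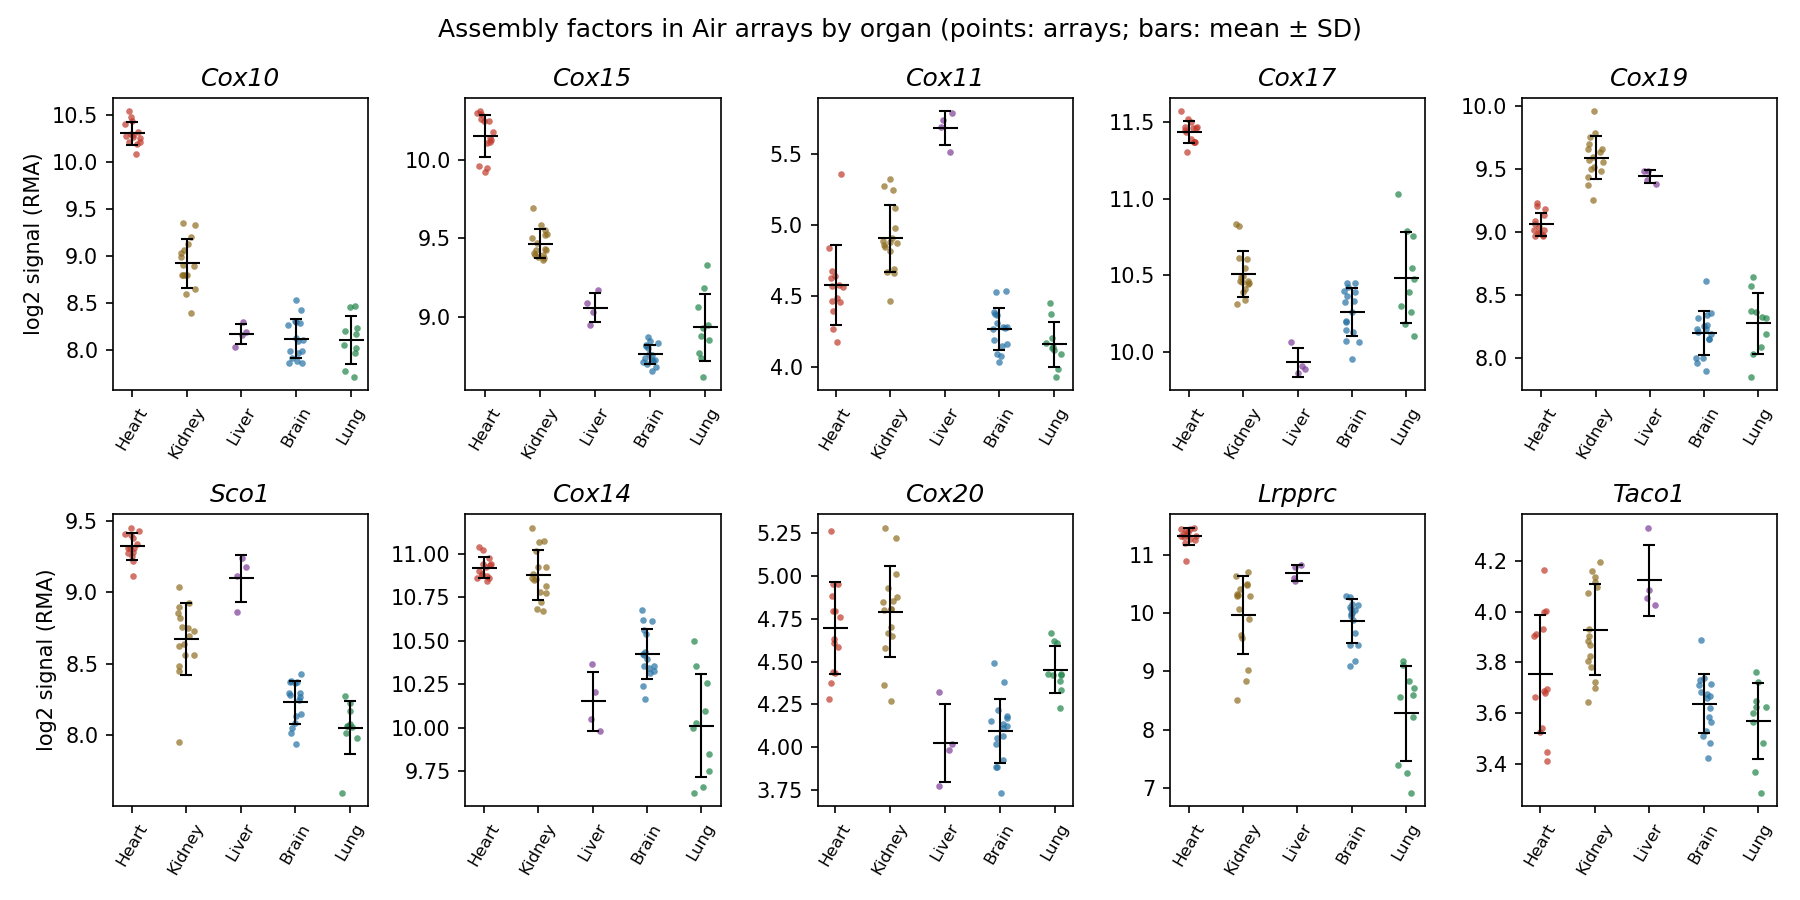
Log2 signal of the 10 assembly factors on Air arrays (vertical axis, own scale in each panel) by organ (horizontal axis). Points are arrays, and bars give the mean and SD of each organ, with Cox10 at 10.31 in heart and 8.92 in kidney, and Lrpprc spread from 6.91 to 9.19 in lung.

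All 10 factors were higher in heart than in lung at an adjusted p under 0.05, and 0 were lower. Of all genes 34.6% were higher and 42.2% lower. The median difference of the factors was 0.93, against -0.05 over all genes. The dim factors Cox11, Cox20 and Taco1 differed least (0.42, 0.24 and 0.19). The Taco1 means, 3.75 in heart and 3.57 in lung, lay below the 25th percentile of every array (3.79 or more), so its difference is one between background-level signals. In heart against brain 9 of the 10 factors were higher (all but Taco1) and 0 lower. Of all genes, 47.7% were higher there and 35% lower. In kidney 9 were higher than in brain (all but Lrpprc), against 50.2% of all genes, and 0 were lower, against 32.4%. Kidney had 9 higher than lung (all but Cox17), against 34.5%, and 0 lower, against 36.2%. Heart had 5 higher and 3 lower than kidney, against 36.9% and 38.2% of all genes, and likewise 5 higher and 3 lower than liver, against 33.4% and 31.7%. Kidney had 5 higher and 3 lower than liver, against 33.8% and 27.2%. Liver had 6 higher and 2 lower than brain, against 44% and 34.1%, and 5 higher and 2 lower than lung, against 33% and 37.6%. Brain had 3 higher and 3 lower than lung, against 32.3% and 44.6%.

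A further 17 assembly and copper factors were measured: 14 of them were higher in heart than in lung and 0 lower (median difference 0.98). Of 15 nuclear subunits of the enzyme, 12 were higher in heart than in lung and 2 lower (median 1.16). In liver against brain, where 44% of all genes were higher and 34.1% lower (median 0.16), 6 of the 10 factors were higher and 2 lower (median 0.39). Of the further 17 factors 11 were higher and 4 lower (median 0.40), and of the 15 subunits 1 was higher and 12 were lower (median -0.49). A difference between these lists was not tested.

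The order of the 5 organ means was the same among PH3 arrays and Air arrays for 6 factors (Cox11, Cox15, Cox17, Sco1, Lrpprc and Taco1). Among the other 4, Cox10 averaged 9.09 ± 0.49 in 7 PH3 livers and 9.02 ± 0.35 in PH3 kidneys, against 8.17 in Air livers and 8.92 in Air kidneys. Kidney minus liver was accordingly -0.069 for Cox10 on PH3 arrays, against 0.75 on Air arrays. The 7 PH3 livers are the 3 at 3 h and the 4 at 6 h.

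Over the mean levels of the 33 groups the gene most like each factor was Zswim7 for Cox10 (Pearson r = 0.983), Casq1 for Cox15 (0.985), Rrad for Cox17 (0.985), Iars2 for Sco1 (0.974) and Slc25a21 for Cox11 (0.942). It was Map2k2 for Cox19 (0.979), Higd2a for Cox14 (0.977), Sucla2 for Lrpprc (0.981), Lgr4 for Taco1 (0.930) and Nid2 for Cox20 (0.835). These correlations describe mostly the differences between 5 organs, since groups of an organ share it.

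After PH3 1 factor passed the test in 1 of 16 comparisons: Cox10 was higher in PH3 livers at 6 h. Of the 160 differences between PH3 and Air, 159 did not pass, 80 were above 0, 155 were smaller than 0.5 and 137 smaller than 0.25 in size. Leaving out Cox10 in liver they ran from -0.51 to 0.89, with a smallest adjusted p of 0.157. An unadjusted p under 0.05 was reached by 15 of the 160 (9.38%), against 7.53% over all genes and comparisons. PH3 and Air arrays did not overlap for 14 of the 160 (8.75%), against 7.48% over all genes and comparisons. The 95% interval of 8 of the other 159 differences reached beyond 1 log2 unit, so a doubling or halving lay within the interval for those.

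Few genes passed in most of these comparisons. The share of all genes past an adjusted p of 0.05 was 0.00744% in brain at each of 1, 3 and 6 h and 0.0298% at 24 h. In heart it was 0.0521% at 1 h, 0.238% at 3 h, 2.7% at 6 h and 0% at 24 h, and in kidney 0.223%, 0.104%, 0.126% and 0.0149% at 1, 3, 6 and 24 h. In lung it was 0.298% at 3 h and 0% at both 24 h and 1 week. The number of factors that passed was 0 in each of these 15 comparisons.

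**Figure D2:**
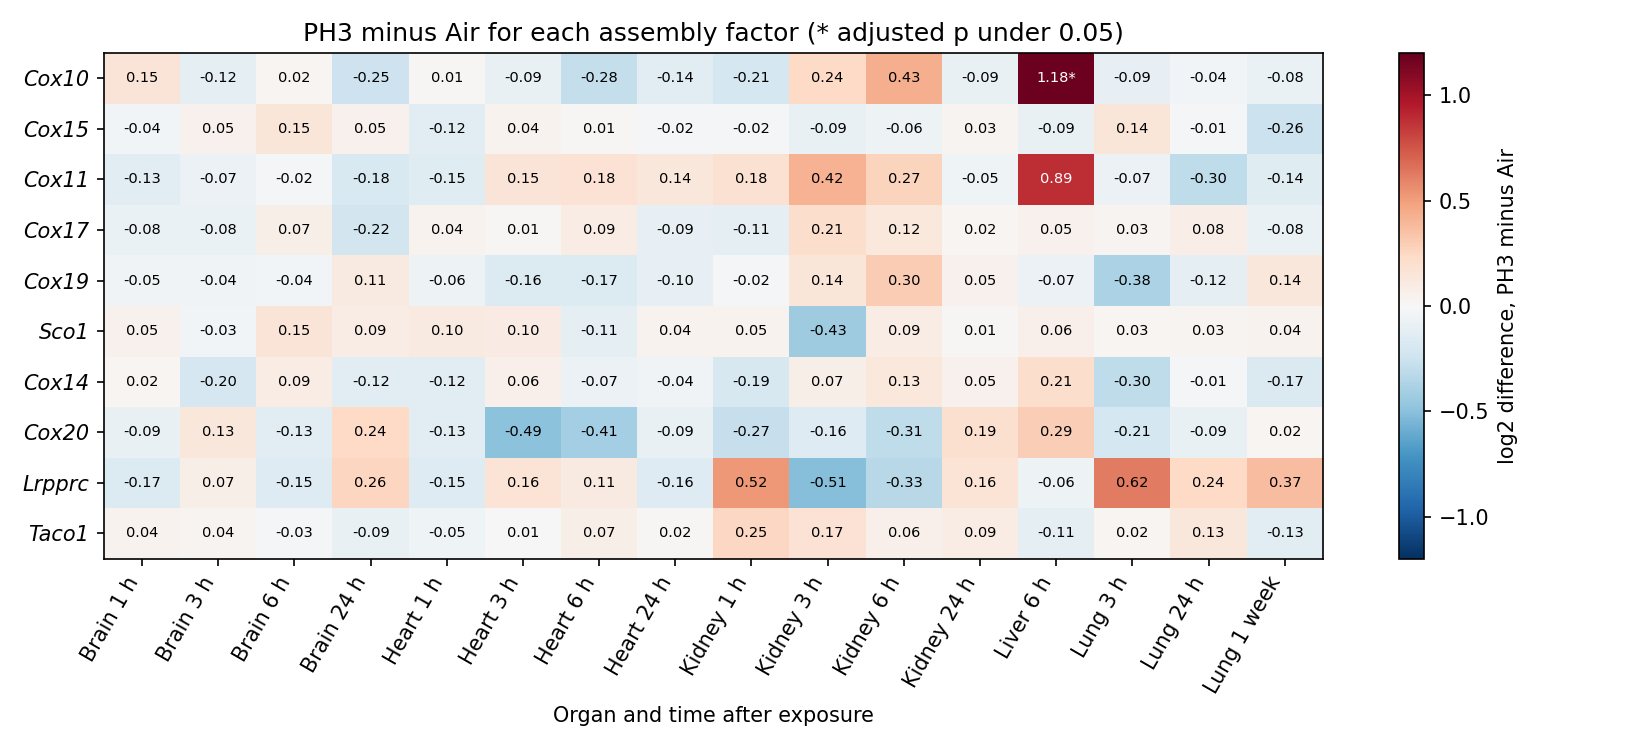
Difference in log2 signal, PH3 minus Air, for the 10 assembly factors (rows) in the 16 comparisons (columns, organ and time after exposure), with red for higher and blue for lower in PH3. The asterisk marks the 1 difference past an adjusted p of 0.05, Cox10 in liver at 6 h, at 1.18.

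In liver at 6 h Cox10 was at 9.31, 9.42, 8.90 and 9.75 in the 4 PH3 rats, and at 8.16, 8.03, 8.30 and 8.19 in the 4 Air rats. Every PH3 liver was above every Air liver, and the PH3 livers were the more spread, at 9.35 ± 0.35, against 8.17 ± 0.11 in Air livers (SD, n = 4 each). The difference was 1.18 ± 0.19 (SE, 95% interval 0.76 to 1.59), a level 2.26 times as high in PH3 livers (limma, adjusted p = 0.0323). At the same threshold 0.238% of all genes passed in liver, and 0.186% were higher, so 1 of 10 factors stands beside 25 of 13439 genes. The 3 PH3 livers at 3 h had Cox10 at 8.34, 8.63 and 9.24, with no Air livers of that time to set against them. The lowest of these 3 lay just above the highest Air liver at 6 h, and the highest lay within the range of the PH3 livers at 6 h.

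The call for Cox10 was close to the threshold. It was lost without PH3 rat 128, 134 or 141, and without any 1 of the 4 Air rats (126, 132, 138 and 156), and it was kept without PH3 rat 140. Over these 8 repeats the difference stayed between 1.04 and 1.32, with an adjusted p between 0.0208 and 0.154. Cox10 had 1 probe set on the array, so no other probe set could be set beside it. Whether its change in liver differed from that in other organs was not tested.

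RNA quality was measured by the gap between the 3′ and 5′ control probe sets of beta-actin, a wider gap meaning fewer intact 5′ ends. That gap was 2.91 to 3.59 (mean 3.31) in PH3 livers at 6 h and 2.93 to 3.19 (mean 3.03) in Air livers at 6 h. In PH3 livers at 3 h it was 3.47 to 4.08. The same gap for GAPDH was 0.856 to 1.31 (mean 1.10) in PH3 livers and 0.708 to 0.933 (mean 0.861) in Air livers at 6 h. The part of RNA quality in the Cox10 difference was not tested. Hepatocyte markers, 6 of 6 measured, had mean levels of 13.49 to 13.55 in PH3 livers and 13.46 to 13.52 in Air livers at 6 h. Leukocyte markers, 6 of 6 measured, had mean levels of 7.07 to 7.34 in PH3 livers and 7.03 to 7.48 in Air livers, and single markers went both ways. Ptprc averaged 6.23 in PH3 livers and 6.83 in Air livers, and S100a8 averaged 5.75 in PH3 livers and 5.20 in Air livers. Their part in the Cox10 difference was not tested.

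Cox11 was the other factor whose liver arrays did not overlap at 6 h, and 2 of 10 without overlap compares with 9.61% of all genes. It was at 6.14, 6.78, 6.28 and 7.08 in PH3 livers and at 5.79, 5.74, 5.69 and 5.51 in Air livers. All 4 PH3 livers were above all 4 Air livers, and the difference of 0.89 ± 0.28 did not pass (adjusted p = 0.157). The other 2 probe sets of Cox11 differed by 0.11 ± 0.10 and -0.05 ± 0.15 between PH3 and Air livers. These 2 were dim, at 3.54 ± 0.09 and 4.23 ± 0.26 in Air livers. The 25th percentile of an array lay between 3.79 and 4.01, above the first and below the second. Neither showed the rise of the brighter probe set, and at such low signal a change can be missed. At 3 h Cox11 in PH3 livers was at 5.78, 4.93 and 6.31, a range that held all 4 Air livers of 6 h.

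The heme A partner of Cox10 did not move with it: Cox15 was at 9.05, 9.04, 9.05 and 8.72 in PH3 livers and at 9.17, 8.95, 9.03 and 9.09 in Air livers (difference -0.09). Among the other factors in liver at 6 h the differences were 0.21 for Cox14 (adjusted p = 0.285), 0.29 for Cox20 (adjusted p = 0.341), 0.05 for Cox17, 0.06 for Sco1, -0.07 for Cox19, -0.06 for Lrpprc and -0.11 for Taco1. The median over the 10 factors was 0.06. Another probe set of Lrpprc, dim in most organs, differed by -0.53 ± 0.12 (adjusted p = 0.111 over all probe sets).

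**Figure D3:**
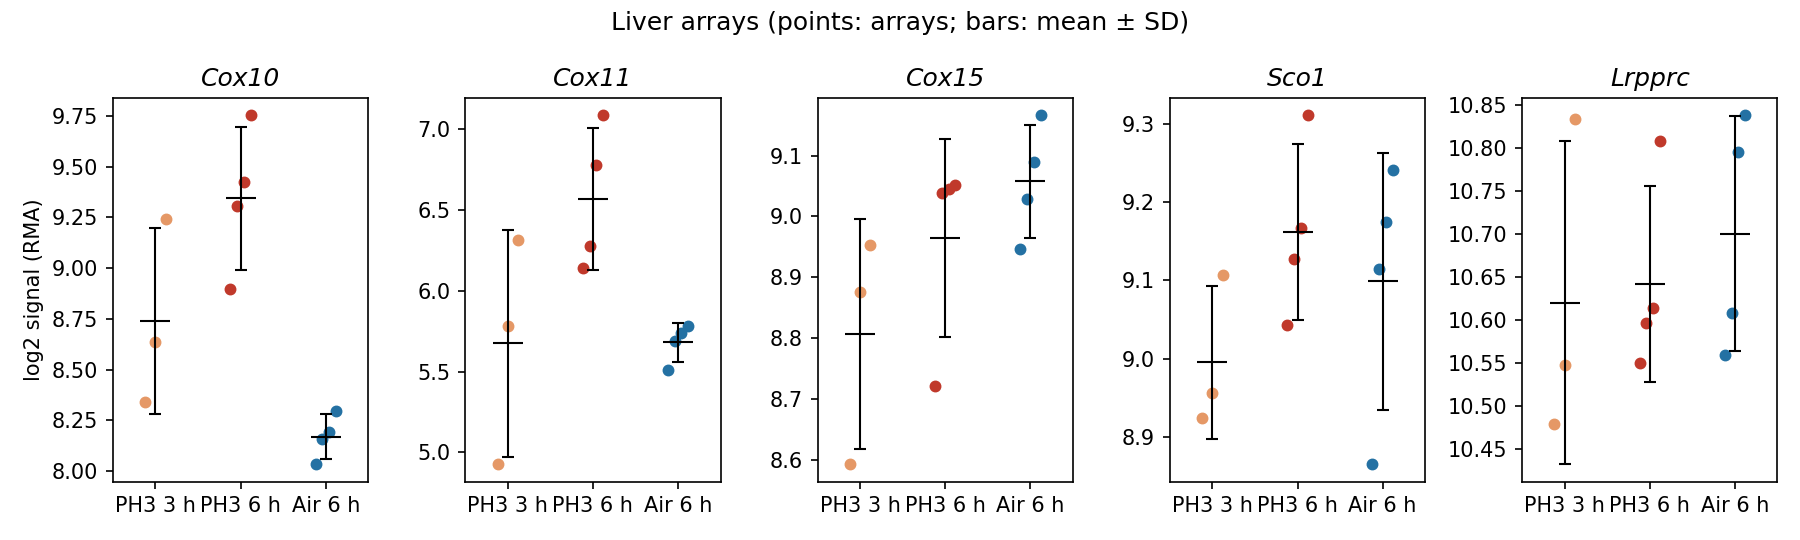
Log2 signal of 5 assembly factors in liver arrays (vertical axis, own scale in each panel) for PH3 at 3 h, PH3 at 6 h and Air at 6 h. Points are arrays and bars the mean and SD. Cox10 lies at 8.90 to 9.75 in PH3 livers at 6 h and at 8.03 to 8.30 in Air livers.

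Of the further 17 assembly and copper factors 1 passed in liver at 6 h. This was Slc25a3, the carrier of phosphate and copper into the mitochondrial matrix, which was higher in PH3 livers by 0.40 ± 0.07 (adjusted p = 0.0423). An unadjusted p under 0.05 was reached by 8 of the 17 in liver, against 14.1% of all genes, and their median difference was 0.21. Of the 15 subunits 0 passed in liver by limma and 5 had an unadjusted p under 0.05, with a median difference of 0.11. Over all 16 comparisons the further factors passed in 1 of 272 values, and 29 (10.7%) had an unadjusted p under 0.05. The subunits passed in 0 of 240, and 17 (7.08%) had an unadjusted p under 0.05.

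Outside liver neither heme A gene passed between PH3 and Air. Cox10 in kidney at 6 h was at 9.15, 9.56, 9.02 and 9.26 in PH3 rats and at 8.80, 8.65, 8.90 and 8.91 in Air rats, without overlap (1 of 10 factors, against 5.94% of all genes), and the difference of 0.43 ± 0.18 did not pass (adjusted p = 0.534). In heart at 6 h it stood at 10.24, 10.15, 10.11 and 9.53 in PH3 rats and at 10.32, 10.30, 10.29 and 10.27 in Air rats. These heart arrays also did not overlap, with PH3 hearts the lower, and the difference of -0.28 ± 0.11 did not pass (adjusted p = 0.204). Heart at 6 h had 2 of 10 factors without overlap, Cox10 and Cox20, against 10.5% of all genes. The differences of Cox10 over the 16 comparisons had a median of -0.08, and those of Cox15 ran from -0.26 to 0.15.

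Among the copper factors Cox17 stayed within -0.22 and 0.21 in every comparison. Its lowest value was in brain at 24 h, where it was at 10.08, 10.39, 10.02 and 10.09 in PH3 rats and at 10.26, 10.33, 10.40 and 10.45 in Air rats (adjusted p = 0.364). Sco1 was above 0 in 13 of 16 comparisons with a highest value of 0.15, and it was lowest in kidney at 3 h. There it was at 8.67, 8.34, 7.89 and 8.77 in PH3 rats and at 8.90, 8.76, 8.82 and 8.92 in Air rats. The groups overlapped and the difference of -0.43 ± 0.17 did not pass (adjusted p = 0.567).

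Cox11 in the same kidneys at 3 h was at 5.13, 5.14, 5.96 and 5.12 in PH3 rats and at 5.24, 4.89, 4.88 and 4.67 in Air rats (difference 0.42 ± 0.19, adjusted p = 0.663). PH3 rat 122 stood above the rest there. Cox19 in kidney at 6 h was at 9.76, 9.97, 9.67 and 9.48 in PH3 rats and at 9.26, 9.38, 9.48 and 9.55 in Air rats (difference 0.30 ± 0.10, adjusted p = 0.363). In lung at 3 h Cox19 was at 7.81, 7.74, 8.07 and 7.89 in PH3 rats and at 8.19 and 8.32 in the 2 Air rats. The lung groups did not overlap, and the difference of -0.38 ± 0.19 did not pass (adjusted p = 0.446). It passed with array weights estimated from the spread of the same data (-0.39, adjusted p = 0.0216). The fit of these weights stopped before it converged in lung. The share of all genes passing with them was not counted. With 2 Air rats, 5 of 10 factors did not overlap in lung at 3 h, and neither did 41.3% of all genes.

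Of the factors for the mitochondrial subunits, Cox20 differed in heart without passing. In heart at 3 h it was at 4.80, 4.33, 4.24 and 4.58 in PH3 rats and at 4.96, 4.88, 4.79 and 5.27 in Air rats (difference -0.49 ± 0.18, adjusted p = 0.242). In heart at 6 h it was at 4.27, 3.91, 4.35 and 3.87 in PH3 rats and at 4.37, 4.44, 4.43 and 4.79 in Air rats (difference -0.41 ± 0.18, adjusted p = 0.264). PH3 hearts were the lower on average at both times and did not overlap with Air hearts at 6 h, at signals near the low end of the array. In heart the Cox20 difference was -0.13 at 1 h and -0.09 at 24 h.

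Cox14 in brain at 3 h was at 10.16, 10.28, 10.30 and 10.19 in PH3 rats and at 10.62, 10.35, 10.32 and 10.42 in Air rats. All PH3 brains were below all Air brains, as held for 1 of 10 factors and 2.95% of all genes, and the difference of -0.20 ± 0.09 did not pass (adjusted p = 0.999). Taco1 stayed within -0.13 and 0.25.

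Lrpprc had the widest errors. In kidney at 1 h it was at 9.31, 10.67, 8.83 and 10.58 in PH3 rats and at 10.33, 8.83, 9.63 and 8.51 in Air rats, and the difference of 0.52 ± 0.44 did not pass (95% interval -0.39 to 1.43, adjusted p = 0.612). Rats of 1 group thus lay further apart than the group means. In kidney at 3 h the difference was -0.51 ± 0.44 (adjusted p = 0.779). In lung at 3 h Lrpprc was at 9.31, 9.27, 8.96 and 9.24 in PH3 rats and at 8.56 and 8.59 in the 2 Air rats, without overlap. The difference of 0.62 ± 0.56 did not pass over all lung arrays (adjusted p = 0.640), and it passed when the 6 arrays were fitted alone (adjusted p = 0.0467). The share of all genes passing in that smaller fit was not counted.

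Whether the effect of PH3 changed with time was tested by a limma F test in each organ with several times. It passed for 0 of 10 factors in brain, heart, kidney and lung, with 0 at an unadjusted p under 0.05, and for 0%, 0.268%, 0% and 0% of all genes. A further F test asked whether brain, heart and kidney responded unequally. It used the times 1, 3 and 6 h and left out 24 h, where heart had 3 PH3 rats and 2 Air rats. It passed for 0 of 10 factors and 1.02% of all genes. Cox10 was the 1 factor with an unadjusted p under 0.05 there, with an adjusted p of 0.249.

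Several of these genes moved together between rats of 1 group. Each array's deviation from the mean of its organ, exposure and time group was taken, and Lrpprc was set against each of the other 9 factors in each organ, a choice made after its spread had been seen. The gap between 3′ and 5′ beta-actin was set against all 10 in the same way, which made 95 relations. Permutations of 100000 draws kept rats within their group, and p-values were adjusted over the 95.

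In kidney (n = 32) Lrpprc ran against Cox10, with Pearson's r = -0.89 and Spearman's rho = -0.89 by permutation test (adjusted p = 0.00032 and 0.00048), and r = -0.89 without the 2 arrays farthest in Lrpprc. The unadjusted p for that r was 1e-05, the smallest these permutations can give. It also ran against Cox14 (r = -0.84, rho = -0.82) and Cox17 (r = -0.83, rho = -0.77), and with Sco1 (r = 0.83, rho = 0.83), all with an adjusted permutation p of 0.00032 for r. Without the 2 farthest arrays these r were -0.81, -0.80 and 0.80. Kidneys with less Lrpprc and Sco1 signal than their group thus had more Cox10, Cox14 and Cox17 signal.

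In brain (n = 32) Lrpprc ran against Cox10 at r = -0.80 and rho = -0.77 (permutation test, adjusted p = 0.00042 and 0.00076), and at r = -0.74 without the 2 farthest arrays. In lung (n = 21) the same pair gave r = -0.78 and rho = -0.70 (permutation test, adjusted p = 0.0193 and 0.0497), and r = -0.69 without the 2 farthest. Lrpprc passed against 4 of 9 factors in brain, 5 in kidney and 4 in lung. The share of all genes that would pass against Lrpprc was not computed. These counts therefore do not set the factors apart from other genes. In heart (n = 29) Lrpprc against Cox10 gave r = 0.08 and rho = 0.23 (permutation test, adjusted p = 0.951 and 0.600), and r = 0.32 without the 2 farthest. In liver (n = 11) it gave r = 0.74 and rho = 0.72 (permutation test, adjusted p = 0.118 and 0.177), and r = 0.39 without them. Lrpprc passed against 0 of 9 factors in heart and in liver, and a difference between organs in these correlations was not tested.

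RNA quality moved with some of these genes in kidney. There the beta-actin gap ran with Cox10 (r = 0.79, rho = 0.84, r without the 2 farthest 0.79) and against Lrpprc (r = -0.71, rho = -0.72, without them -0.72), each with an adjusted permutation p of 0.00032 for r. It passed for 4 of 10 factors in kidney, 1 in lung and 0 in brain, heart and liver. The share of all genes that would pass against this gap was not computed, so the counts do not set the factors apart. In liver the gap gave r = 0.74 and rho = 0.59 with Cox10 over 11 arrays (permutation test, adjusted p = 0.248 and 0.463). Its part in the opposite movement of Lrpprc and Cox10 was not tested.

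**Figure D4:**
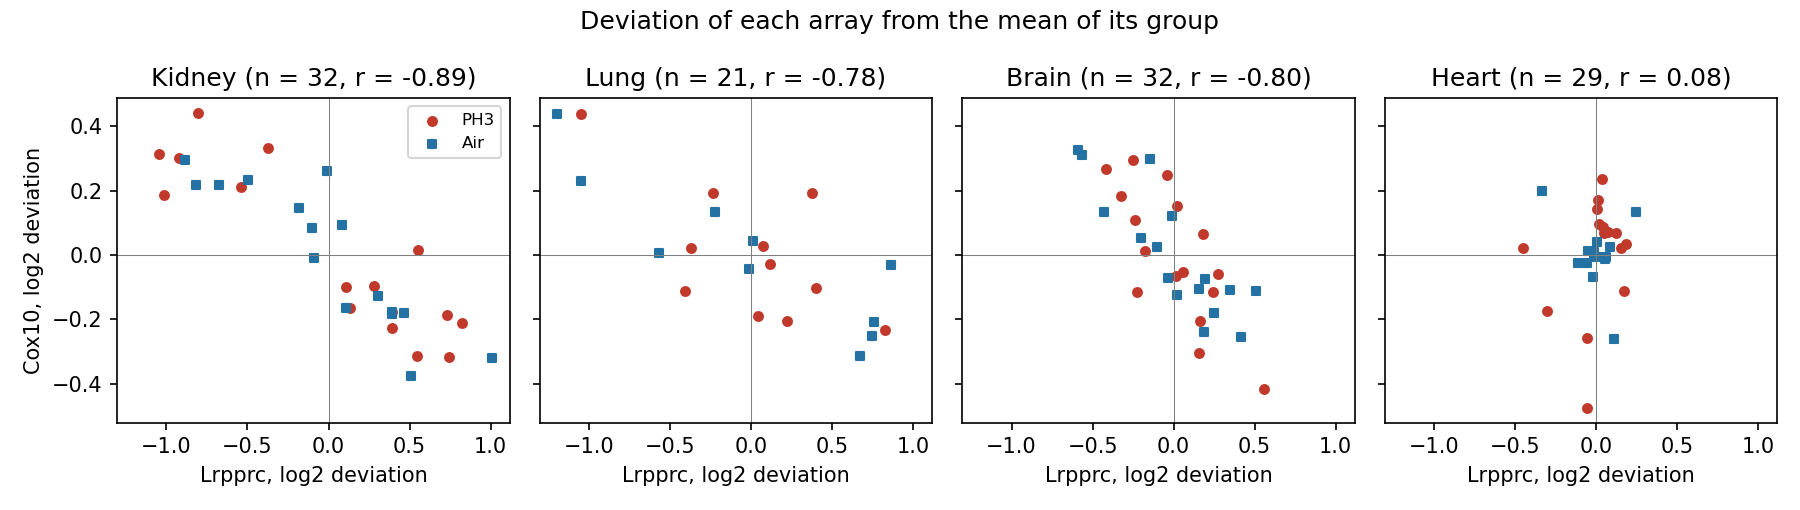
Deviation of Cox10 (vertical axis, log2) against deviation of Lrpprc (horizontal axis, log2) from the group mean, in kidney, lung, brain and heart. Each point is an array, with red circles for PH3 and blue squares for Air. The points fall from upper left to lower right in kidney (r = -0.89), lung (-0.78) and brain (-0.80), and not in heart (0.08).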

How the data were processed

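Total RNA of frozen, powdered organs was labelled by a 3′ method and hybridised to Affymetrix rat arrays, per the labels' protocols. The deposited values of 31139 probe sets are log2 signals, summarised by the authors with RMA, and per the submitters' processing notes the software was Affymetrix Expression Console and Partek (no versions). Of the probe sets, 19069 had 1 symbol in the platform annotation, 572 several and 11498 none, and 18989 matched RefSeq's GRCr8 gene table. Where a gene had several probe sets, that of highest mean signal stood for it. Models were fitted with limma 3.58.1 (R 4.3.3, eBayes with a trend), with a coefficient for each exposure and time group of an organ, or for each organ among Air arrays. Benjamini-Hochberg adjustment ran over all 13439 genes, with 0.05 as the threshold. The fit was also run on simulated data with independent normal noise for each gene, unlike these arrays, where genes moved together. Arrays have no read depth, so their number limits precision. Organs of 1 rat share its number. Deviations of the same rat correlated between organs with medians of 0.08 (brain and heart), -0.02 (brain and kidney) and 0.07 (heart and kidney). All 10 factors and the lists of 24 further factors (17 measured) and 17 subunits (15 measured) were chosen with earlier results of these data known, and the text names all 10 factors, and those list members that passed. Alternatives changed the arrays in the fit, their weights, centring, filter, variance trend and probe set. Blood was not analysed here.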

Additional observations from a re-analysis of the deposited data

Results flagged for a closer look

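In 280 groups of 4 rats, 1 per factor and group, 13 had a rat that stood far from the other 3 (4.64%), and chance alone flags about 1 in 20. In heart, PH3 rat 116 at 1 h had Lrpprc at 10.73, against 11.30 to 11.35 in the others, and PH3 rat 115 at 1 h had Taco1 at 3.997, against 3.68 to 3.72. PH3 rat 105 at 3 h had heart Cox10 at 10.08, against 10.29 to 10.33, and Air rat 156 at 6 h had heart Cox20 at 4.79, against 4.37 to 4.44. In kidney, PH3 rat 91 at 24 h had Cox10 at 9.13, against 8.51 to 8.59, PH3 rat 122 at 3 h had Cox11 at 5.96, against 5.12 to 5.14, and PH3 rat 115 at 1 h had Cox20 at 5.06, against 4.51 to 4.60. Air rat 132 at 6 h was low in kidney for Cox17 (10.34, against 10.44 to 10.46) and Cox20 (4.36, against 4.80 to 4.88), and Air rat 107 at 1 h was high for Cox19 (9.96, against 9.57 to 9.63). In brain, Air rat 156 at 6 h had Cox10 at 8.29, against 7.87 to 7.92, and Air rat 97 at 3 h had Sco1 at 8.29, against 8.367 to 8.375. In liver at 6 h PH3 rat 141 had Cox15 at 8.72, against 9.04 to 9.05, and was the rat with the highest Cox10.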

How the results depend on the processing

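Without a trend in the variance 0 factors passed in liver at 6 h (Cox10 1.18, adjusted p = 0.0850), and leaving out 1 liver array at a time gave 0 to 1. The other 5 alternatives kept the Cox10 call. In lung at 3 h, 1 factor passed with only the arrays compared (Lrpprc) and 1 with array weights (Cox19), against 0; the weights' fit stopped before it converged in brain and lung. Leaving out single arrays of the other organs moved no count of PH3 against Air. For organ pairs, 4 factors passed in liver against lung without the genes of lowest signal (1 in 3), against 7, and 3 in brain against lung with time as an added term, against 6. Leaving out 1 Air liver gave 8 to 9 in heart against liver, 7 to 8 in kidney against liver and 7 to 8 in liver against brain. The cause was not tested, except that the filter left out low factors. Cox14 in liver minus brain reversed to 0.045 with array medians subtracted. On PH3 arrays, an alternative chosen after seeing the data, Cox10 in kidney minus liver reversed to -0.069. With the rat as a replicate block, the organ pair counts did not change (correlation 0.0037): all 10 factors still passed in heart against lung. With that block (correlation 0.021) Cox10's difference between brain, heart and kidney had an adjusted p of 0.224, against 0.249. Over single organ differences and these alternatives, 367 values kept direction and call, and 17 kept the direction and lost the call. No paired analysis was possible for PH3 against Air because PH3 and Air rats share no numbers. No factor had another probe set of highest mean within an organ, so that alternative gave no value. Low signal limits Cox11, Cox20 and Taco1.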
